A study of Mus musculus with 6 samples.

Results

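Keratins and epithelial identity genes were followed as 9 genes chosen by name, of 21827 genes listed for the series. They are the simple keratin genes Krt8, Krt18 and Krt19, the basal keratin genes Krt5, Krt14 and Krt15, and the identity genes Epcam, Cdh1 and Trp63. All 9 reached 1 TPM (an abundance per length of transcript, scaled to one total) in all 6 libraries and entered the test over 12152 genes. RNA came from the tip of the lower jaw (distal mandible) of mouse embryos at E10.75 (days of embryonic development). One group is 3 single embryos labelled mutant (Msx1f/f;Msx2f/f;Rosa26mTmG/+;Hand2-Cre), and the other is 3 single embryos labelled control (Msx1f/+;Msx2f/f;Rosa26mTmG/+;Hand2-Cre), each of the 3 litters giving 1 embryo to either label. Both groups thus carry 2 floxed Msx2 alleles, the Cre that Hand2 regulatory sequence drives and a membrane reporter that turns green after recombination. Tissue was dissected under fluorescence and not sorted into cell types, so epithelium and mesenchyme were sequenced together. No embryo with intact Msx1 and Msx2 is in the comparison, and the labels do not say whether the epithelium itself was recombined.

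Keratins are the intermediate filament proteins of epithelia, and each filament pairs a type I with a type II keratin. Krt8 (type II) with Krt18 or Krt19 (type I) marks simple and embryonic surface epithelium, whereas Krt5 (type II) with Krt14 or Krt15 (type I) marks the basal layer of stratifying epithelium. The mandibular arch is a core of mesenchyme under a thin sheet of oral and facial ectoderm, which produces signals for the mesenchyme beneath it. In bulk RNA, fewer epithelial cells and less RNA per epithelial cell cannot be told apart.

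Msx1 itself went against the labels, which bears on every direction given below. It was at 1.90, 78.8 and 73.3 TPM in the mutant-labelled libraries of litters 1, 2 and 3, against 84.1, 2.61 and 1.99 TPM in the control-labelled ones. The library with under 10 TPM of Msx1 was therefore the one labelled mutant in litter 1 and the one labelled control in litters 2 and 3. Comparisons by label and values beside Msx1 are given separately, and no group was formed from Msx1. Mesenchyme markers were abundant in every library (7 of 7 genes tested), with the 7 markers summing to 677 to 716 TPM in the mutant-labelled libraries and 728 to 769 TPM in the control-labelled ones. The summed share of 6 red blood cell markers was 2.84% for the embryo labelled mutant of litter 1, with 0.894% to 1.23% for the remaining 5 embryos. The mitochondrially encoded share was 8.03% for the embryo labelled control of litter 1, with 6.02% to 6.51% for the remaining 5. The number of reads behind each TPM is unknown.

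Epithelial transcripts were present in all 6 libraries. The 9 genes summed to 115, 120.4 and 122 TPM in the mutant-labelled libraries of litters 1, 2 and 3, and to 130, 118 and 131 TPM in the control-labelled ones. As a share of the listed TPM this was 0.0156%, 0.0165% and 0.0169% in the mutant-labelled libraries, and 0.0181%, 0.0160% and 0.0182% in the control-labelled ones. The highest library exceeded the lowest 1.16-fold, and the labels overlapped. The 3 identity genes alone summed to 58.2, 61.0 and 64.2 TPM in the mutant-labelled libraries and 70.8, 65.4 and 65.4 TPM in the control-labelled ones, lower in the mutant label without overlap. Of the 3, Epcam alone separated in this way, as did 10.4% of all genes tested, whereas Cdh1 and Trp63 overlapped. The mean share was 0.0164% ± 0.000664 in the mutant label and 0.0174% ± 0.00122 in the control label (SD, n = 3 each). Such a share is not a fraction of cells, since no library of pure epithelium is in the series.

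The order of levels placed Trp63, Krt18, Epcam, Cdh1 and Krt8 well above the other keratins. Means over the 6 libraries were 28.6 TPM for Trp63, 26.3 TPM for Krt18, 19.5 TPM for Epcam, 16.1 TPM for Cdh1 and 14.7 TPM for Krt8. Krt15 followed at 5.99 TPM, Krt5 at 4.87 TPM, Krt19 at 3.40 TPM and Krt14 at 3.18 TPM. Neighbours in this order overlapped in their ranges over the libraries, with 2 exceptions. The lowest Krt18 value of 23.2 TPM stood above the highest Epcam value of 22.2 TPM, and the lowest Krt8 value of 12.6 TPM above the highest Krt15 value of 7.74 TPM. Of 53 keratin genes listed, 28 were at 0 in every library and 9 reached 1 TPM in at least 3 libraries. Besides the 6 followed here these were Krt10, a keratin of differentiating epidermis (mean 5.63 TPM), Krt222 (1.19 TPM) and Krt7, a simple keratin (1.18 TPM). Krt6a, Krt6b, Krt13, Krt16 and Krt42 were listed at 0 in all 6 libraries.

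Simple keratins outweighed basal keratins in every library. Krt8, Krt18 and Krt19 summed to 39.1, 44.9 and 45.4 TPM in the mutant-labelled libraries of litters 1, 2 and 3, and to 46.4, 39.8 and 51.2 TPM in the control-labelled ones. Krt5, Krt14 and Krt15 summed to 17.5, 14.4 and 12.3 TPM in the mutant-labelled libraries, and to 12.5, 12.6 and 14.8 TPM in the control-labelled ones. The ratio of simple to basal sums was 2.23, 3.11 and 3.69 in the mutant-labelled libraries and 3.71, 3.16 and 3.47 in the control-labelled ones, so the labels overlapped. The log2 ratio averaged 1.56 ± 0.37 in the mutant label and 1.78 ± 0.12 in the control label (SD, n = 3 each), a difference of -0.22. Without the mutant-labelled library of litter 1, which has the lowest ratio and the highest red blood cell share, the difference was -0.02. The part of that share in the ratio was not tested.

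**Figure D1:**
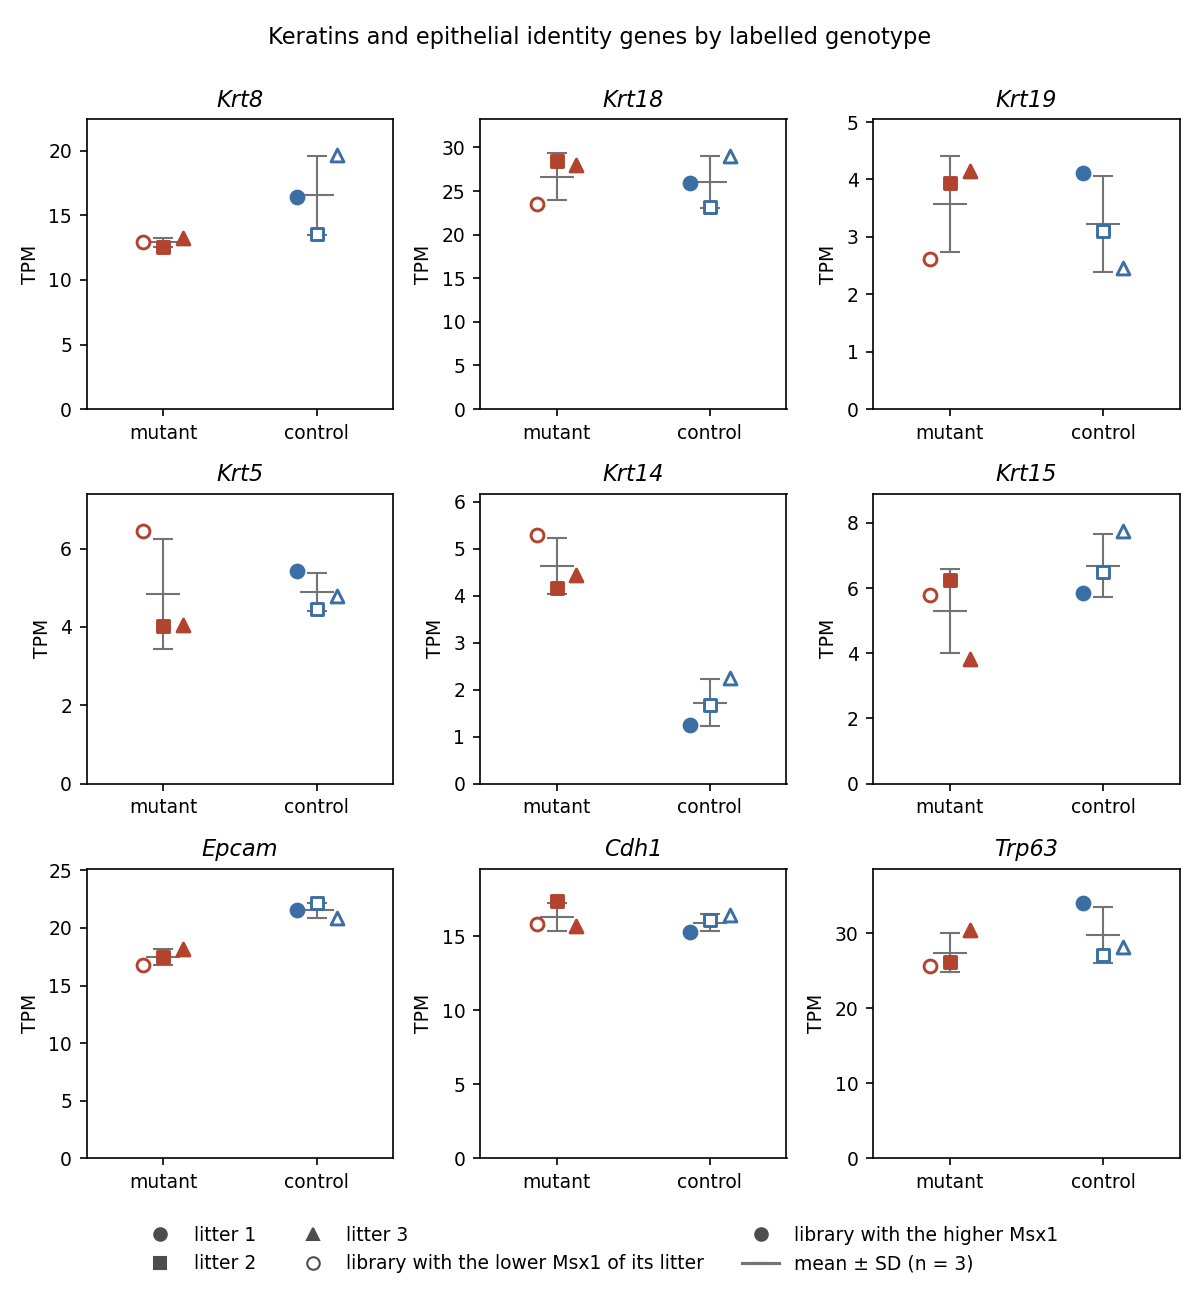
TPM (vertical axes, each from 0) of the 9 genes in the 6 libraries, by label, with the litter as marker shape, open markers for the library with the lower Msx1 of its litter, and grey bars for the mean ± SD of 3 libraries. Krt14 lies between 4.17 and 5.30 TPM in the mutant-labelled libraries and between 1.25 and 2.24 TPM in the control-labelled ones, Epcam and Krt8 lie lower in the mutant-labelled libraries without overlap, and the other 6 genes overlap.

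Between the labels, none of the 9 genes was called. The log2(TPM + 1) values of all 12152 genes were fitted with limma (moderated linear models), with p-values adjusted by the Benjamini-Hochberg method and a threshold of 0.05. Of the 9 genes, 0 were higher and 0 lower in the mutant-labelled libraries, beside 0% of all genes tested in either direction. At an unadjusted p under 0.05, 1 of the 9 was higher (Krt14; 1.9% of all genes tested) and 1 was lower (Epcam; 4.82%). The split over all genes at that unadjusted p was 231 higher and 586 lower, and it became 410 and 305 after median-of-ratios scaling, under which Krt14 and Epcam still had unadjusted p under 0.05. The 9 genes had a median log2 difference of -0.03, against -0.06 over all genes tested.

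Separation of the labels was seen for 3 of the 9 genes. All 3 mutant-labelled libraries lay above all 3 labelled control for 1 gene, Krt14 (2.73% of all genes tested), and below them for 2 genes, Epcam and Krt8 (10.4%). Within litters, the mutant-labelled library was the higher in 3 of 3 litters for Krt14 alone (7.64% of all genes tested) and the lower in 3 of 3 for Krt8, Krt15 and Epcam (21.2%). An exact permutation test of 3 against 3 libraries cannot go below p = 0.1, so none was used for single genes.

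Krt14, the type I keratin of basal cells (ENSMUSG00000045545; chromosome 11, 100203162 to 100207548, minus strand, GRCm38), had the largest log2 difference of the 9. It was at 5.30, 4.17 and 4.43 TPM in the mutant-labelled libraries of litters 1, 2 and 3, against 1.25, 1.68 and 2.24 TPM in the control-labelled ones. The labels did not overlap, and within litters the mutant-labelled library was 4.25-fold, 2.48-fold and 1.98-fold the control-labelled library. The ratio of the label means was 2.69. The log2 difference was 1.06 ± 0.19 (SE; limma adjusted p = 0.489), and it lay between 0.93 and 1.19 when 1 library at a time was left out. A fold change on the log2(TPM + 1) scale understates the change of a gene this low, and with a pseudocount of 0.1 the difference was 1.41. Its base mean in the authors' deposited table, which in DESeq2 output is a mean of scaled counts, was 30.5, the lowest of the 9 genes.

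Its partner Krt5, the type II keratin of basal cells (ENSMUSG00000061527; chromosome 15, 101707070 to 101712898, minus strand), did not share this pattern of values. Krt5 was at 6.45, 4.01 and 4.06 TPM in the mutant-labelled libraries and 5.43, 4.46 and 4.79 TPM in the control-labelled ones. The labels overlapped, with the mutant-labelled library of litter 1 the highest. The log2 difference was -0.03 ± 0.19 (SE; limma adjusted p = 0.970), and its sign turned under median-of-ratios scaling and quantile normalization. The ratio of Krt14 to Krt5 within a library was 0.821, 1.04 and 1.09 in the mutant-labelled libraries and 0.230, 0.377 and 0.468 in the control-labelled ones, without overlap. Krt14 made up 30.2%, 28.9% and 36.0% of the summed basal keratin TPM in the mutant-labelled libraries and 9.95%, 13.3% and 15.2% in the control-labelled ones. Krt14 separated by itself and Krt5 overlapped, so neither this share nor the ratio is a separation apart from that of Krt14.

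Krt15, another type I keratin of basal cells (ENSMUSG00000054146; chromosome 11, 100131758 to 100135928, minus strand), had values in the other direction from Krt14. It was at 5.79, 6.25 and 3.82 TPM in the mutant-labelled libraries and 5.85, 6.49 and 7.74 TPM in the control-labelled ones. The labels overlapped, and only litter 3 showed a wide gap, with the mutant-labelled library at 0.494 of its littermate. The log2 difference was -0.31 ± 0.19 (SE; limma adjusted p = 0.752). By sign, 1 of the 3 basal keratins was higher and 2 were lower in the mutant-labelled libraries.

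Krt8, the type II keratin of simple epithelium (ENSMUSG00000049382; chromosome 15, 101996698 to 102004482, minus strand), had 13.0, 12.6 and 13.3 TPM in the mutant-labelled libraries and 16.4, 13.6 and 19.7 TPM in the control-labelled ones. The mutant-labelled libraries were all lower, by a narrow margin from the control-labelled library of litter 2. The mean was 21.9% lower in the mutant label, and the log2 difference was -0.32 ± 0.14 (SE; limma adjusted p = 0.726). Krt18, its type I partner (ENSMUSG00000023043; chromosome 15, 102028180 to 102032027, plus strand), lies next to it and overlapped between labels. Krt18 had 23.5, 28.4 and 28.0 TPM in the mutant-labelled libraries and 25.9, 23.2 and 29.1 TPM in the control-labelled ones (log2 difference 0.03 ± 0.12, SE; limma adjusted p = 0.958). The ratio of Krt8 to Krt18 was 0.551, 0.443 and 0.473 in the mutant-labelled libraries and 0.634, 0.584 and 0.678 in the control-labelled ones, again without overlap. This ratio is not independent of the separation of Krt8 itself. Rescaled to equal sums of the 7 mesenchyme markers, which were themselves lower in the mutant-labelled libraries, Krt8 overlapped between the labels.

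Krt19, a small type I keratin of simple epithelium (ENSMUSG00000020911; chromosome 11, 100140810 to 100148665, minus strand), was at 2.61, 3.94 and 4.15 TPM in the mutant-labelled libraries and 4.11, 3.11 and 2.45 TPM in the control-labelled ones. The labels overlapped widely, and the log2 difference was 0.11 ± 0.21 (SE; limma adjusted p = 0.914).

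Epcam, an adhesion molecule found on nearly all simple epithelia (ENSMUSG00000045394; chromosome 17, 87635979 to 87651129, plus strand), separated the labels with little spread within them. It was at 16.8, 17.5 and 18.2 TPM in the mutant-labelled libraries and 21.5, 22.2 and 20.9 TPM in the control-labelled ones. The label means were 17.5 ± 0.676 and 21.5 ± 0.665 TPM in the mutant and control labels (SD, n = 3 each), so the mean was 18.8% lower in the mutant label. The log2 difference was -0.29 ± 0.09 (SE; limma adjusted p = 0.686). Cdh1, the E-cadherin of adherens junctions (ENSMUSG00000000303; chromosome 8, 106603351 to 106670246, plus strand), was the steadiest of the 9, with a coefficient of variation of 4.47% over the 6 libraries. It was at 15.8, 17.4 and 15.7 TPM in the mutant-labelled libraries and 15.3, 16.1 and 16.4 TPM in the control-labelled ones (log2 difference 0.03 ± 0.10, SE; limma adjusted p = 0.947). The ratio of Epcam to Cdh1 was 1.06, 1.01 and 1.16 in the mutant-labelled libraries and 1.41, 1.38 and 1.27 in the control-labelled ones, without overlap. With Cdh1 this steady, the ratio largely restates the Epcam values.

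Trp63, the p63 transcription factor gene that maintains basal epithelial cells and drives Krt5 and Krt14 (ENSMUSG00000022510; chromosome 16, 25683763 to 25892102, plus strand), overlapped between labels. It was at 25.6, 26.2 and 30.4 TPM in the mutant-labelled libraries and 34.0, 27.1 and 28.1 TPM in the control-labelled ones. The log2 difference was -0.11 ± 0.12 (SE; limma adjusted p = 0.838). The highest value was in the control-labelled library of litter 1, which also had the highest mitochondrial share. The part of that share in Trp63 was not tested.

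**Figure D2:**
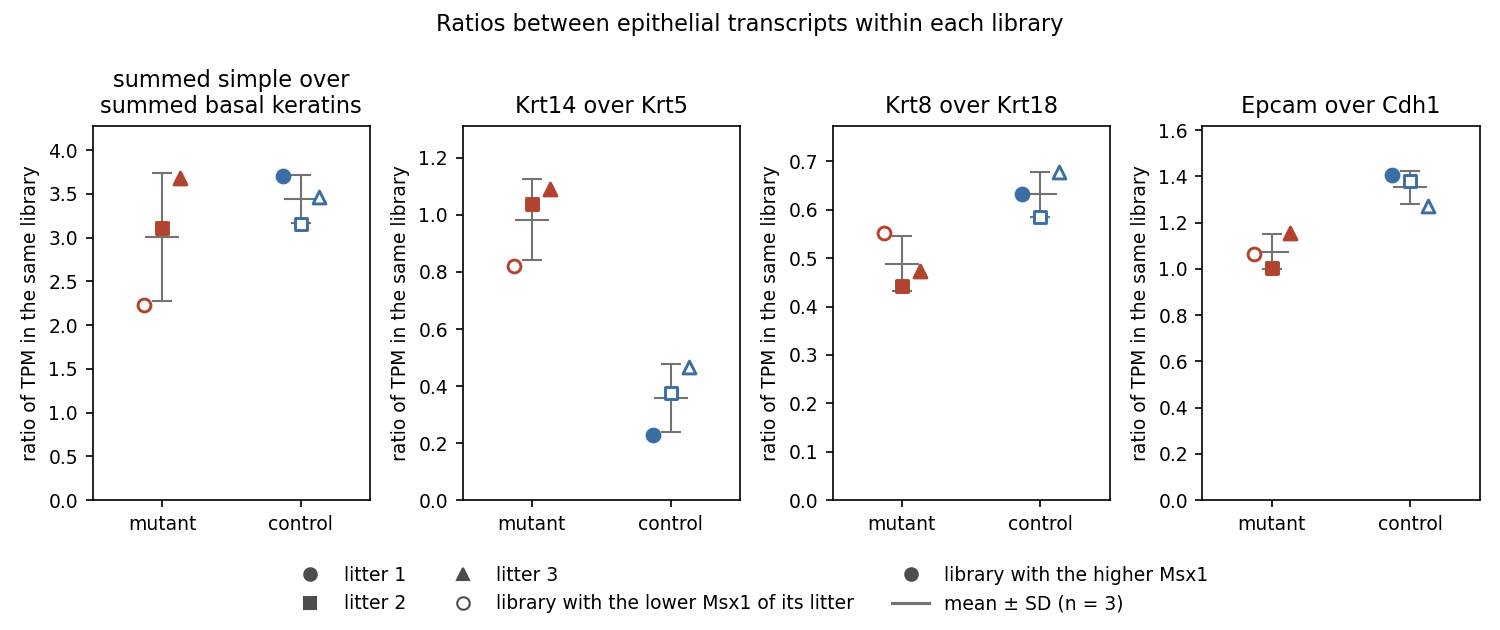
Ratios of TPM within each library (vertical axes, each from 0) by label, with litter as marker shape, open markers for the library with the lower Msx1 of its litter, and grey bars for the mean ± SD of 3 libraries. Summed simple over summed basal keratins overlaps between labels, whereas Krt14 over Krt5 is higher, and Krt8 over Krt18 and Epcam over Cdh1 are lower, in each library labelled mutant than in any labelled control. Each ratio that separates sets a gene that separated by itself over a gene that overlapped.

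How far a read can be assigned to 1 gene differs among the 9, because keratins arose by duplication and left processed pseudogenes. Of the 31-base words in Krt8 transcripts (GENCODE M21, words compared on both strands), 36.0% also occur in transcripts of other genes, and 32.2% in the pseudogene Krt8-ps alone. For Krt14 the shared part was 28.2%, most of it with Krt16 (17.6%), which was listed at 0 in all 6 libraries. It was 15.8% for Krt5, 11.4% for Krt18, 3.74% for Krt15, 0.460% for Cdh1, 0.439% for Krt19, 0.0450% for Epcam and 0% for Trp63. TPM of Krt8, Krt14, Krt5 and Krt18 are therefore uncertain to the extent that reads were split with such copies.

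Sequence before the transcription start is shown for Krt14 and Epcam, whose values separated by label, and for Krt5 as the partner of Krt14. Krt8 also separated by label. Its window is not shown, and 140 of its 250 bases lie in Krt8 exons. Each run is the 250 bases before a RefSeq start (RefSeq, build GRCm38.p6), and RefSeq promoters were matched for 5 of the 9 genes (Krt5, Krt8, Krt14, Krt18 and Epcam). Searched on both strands were CAGGTG, an E-box that Snail and Zeb repressors of epithelial genes bind, TATAA, the core of a TATA box, and GCCNNNGGC, bound by AP-2 factors, and matches are in capitals. These motifs were chosen after the values were known. The windows are chr11:100206031-100206280 for Krt14 and chr15:101712906-101713155 for Krt5, both on the minus strand, and chr17:87635729-87635978 on the plus strand for Epcam. The Krt14 window lies inside the gene's span given above. It ends directly before the start of 1 of the 2 Krt14 transcripts in GENCODE M21 and falls in an intron of the other, longer one, so it is upstream of the shorter transcript only.
Krt14: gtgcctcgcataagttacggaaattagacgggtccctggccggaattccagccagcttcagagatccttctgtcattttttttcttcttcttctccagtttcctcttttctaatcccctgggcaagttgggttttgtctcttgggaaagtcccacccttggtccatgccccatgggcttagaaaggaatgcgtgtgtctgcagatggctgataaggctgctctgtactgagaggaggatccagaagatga
Krt5: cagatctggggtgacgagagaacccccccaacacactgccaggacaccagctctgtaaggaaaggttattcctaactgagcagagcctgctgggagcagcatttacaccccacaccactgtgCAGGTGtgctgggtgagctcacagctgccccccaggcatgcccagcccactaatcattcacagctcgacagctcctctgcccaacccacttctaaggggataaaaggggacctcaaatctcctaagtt
Epcam: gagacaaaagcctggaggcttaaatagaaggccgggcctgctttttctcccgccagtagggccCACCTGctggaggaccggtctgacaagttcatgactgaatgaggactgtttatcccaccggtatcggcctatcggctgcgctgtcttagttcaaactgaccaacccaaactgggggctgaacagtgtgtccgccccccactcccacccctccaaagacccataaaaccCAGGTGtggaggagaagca

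The E-box letters CAGGTG or their complement CACCTG occurred 2 times before Epcam, 1 time before Krt5, and not in the Krt14 window. The Krt8 window, which is not shown, held them 1 time. Of 32851 RefSeq promoter windows of the same length, 17.2% held the motif at least 1 time. Neither TATAA (22.8%) nor GCCNNNGGC (13.7%) occurred in the 3 windows shown. No motif match overlapped another. A match is a description of letters and not a bound site, and an absent match says only that these letters are not in the window.

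The authors' deposited table gives a comparison of their own, and neither its direction nor the libraries in each of its groups are stated. Msx1 is at -5.19 ± 0.26 in it (log2 fold change and the table's standard error), whereas by label the TPM gave 1.41 ± 1.95 (log2(TPM + 1) difference, SE, limma). Its groups therefore cannot be the label groups of the TPM files, and its values for the 9 genes are not a second estimate of the label differences. Msx1 is negative in it, so positive values stand for genes higher on the side with less Msx1. In it 0 of the 9 genes passed an adjusted p threshold of 0.05, beside 0.0961% of all genes that have one. None had an unadjusted p under 0.05 either, beside 1.85% of the genes with a p. Of the 9, 4 were positive and 5 negative there, the authors' deposited table giving them a median of -1.08e-05, against 0.0032 over all genes with an adjusted p. The largest values in size were Krt19 at -0.57 ± 0.62 (the table's standard error), Krt15 at 0.35 ± 0.44 and Krt5 at 0.21 ± 0.43. The adjusted p was 0.999994 for all 9. Krt14, in the authors' deposited table, was at -0.17 ± 0.76, Trp63 at -0.16 ± 0.16, Krt18 at -0.13 ± 0.25, Krt8 at 0.11 ± 0.29, Epcam at 0.06 ± 0.26 and Cdh1 at -1.08e-05 ± 0.17. The standard error was widest for Krt14 and next widest for Krt19, which have the lowest base means of the 9 there (30.5 and 30.7). The reason for the width was not tested.

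**Figure D3:**
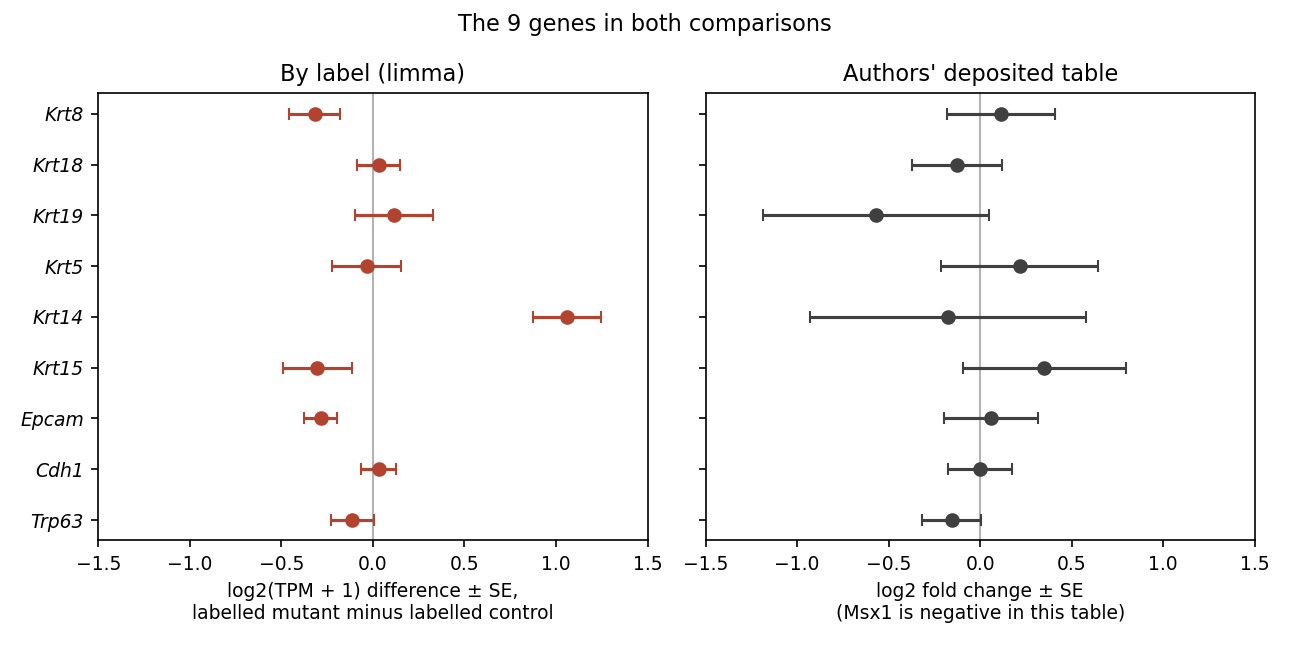
Left, log2(TPM + 1) differences of the 9 genes (labelled mutant minus labelled control, limma, bars ± SE), and right, log2 fold changes ± SE from the authors' deposited table, in which Msx1 is -5.19 and whose groups are not the label groups of the left panel. Krt14 stands at 1.06 on the left and -0.17 on the right, and none of the 9 genes passed either threshold.

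Beside Msx1, within litters, Krt19 and Krt5 had the same order in all 3 litters. Krt19 was lower in the library with the lower Msx1 each time, at 2.61 TPM labelled mutant and 4.11 TPM labelled control in litter 1, 3.94 TPM labelled mutant and 3.11 TPM labelled control in litter 2, and 4.15 TPM labelled mutant and 2.45 TPM labelled control in litter 3. Krt5 was higher in the library with the lower Msx1 in 3 of 3 litters, by factors of 1.19, 1.11 and 1.18. An unbroken order of either direction was thus found for 2 of the 9 genes and for 22.7% of all genes tested, so the count is near the background. The direction of Krt19, lower with lower Msx1, was that of 11.9% of all genes tested. Krt14 followed the lower Msx1 in litter 1 (4.25-fold) and went the other way in litters 2 and 3 (0.404-fold and 0.505-fold). Krt8, Krt15, Epcam and Cdh1 were higher with lower Msx1 in 2 of 3 litters, and Krt18 and Trp63 in 1 of 3. These orders are descriptions with no test, since Msx1 was measured in the same libraries.

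Related epithelial genes were read from 5 lists with 68 genes, of which 46 were tested. They cover other keratins, cell junctions, transcription and splicing factors, membrane proteins with proteases and inhibitors, and attachment to the basement membrane. None was called between the labels by limma (0 higher, 0 lower), with 1 higher and 1 lower at an unadjusted p under 0.05, and none passed in the authors' deposited table. By sign 20 of the 46 were higher and 26 lower in the mutant-labelled libraries. Over all 12152 genes tested, 4205 were higher and 7947 lower by sign, so a lean to lower values is not particular to these lists. Their median log2 difference was -0.04, against -0.06 over all genes tested. All mutant-labelled libraries lay above the control-labelled ones for 2 of the 46 (2.73% of all genes tested) and below them for 7 (10.4%). Summed over the 68 genes, the lists held 877 to 920 TPM in the mutant-labelled libraries and 939 to 1033 TPM in the control-labelled ones, again without overlap. Most of that sum, and of the membrane protein sum below, is the single gene Cd24a. Cd24a was itself lower without overlap, at 495, 523 and 503 TPM in the mutant-labelled libraries and 564, 537 and 621 TPM in the control-labelled ones. The separation of both sums rests on Cd24a and does not describe the other genes in them. The sums of the junction list (122 to 129 TPM in the mutant-labelled libraries, 132 to 144 TPM in the control-labelled ones) and of the membrane protein list (595 to 629 TPM in the mutant-labelled libraries, 661 to 715 TPM in the control-labelled ones) also separated. In the junction list 1 of the 14 tested genes, Cldn7, was itself lower without overlap, and 6 were higher by sign. The junction sum therefore does not describe that list as a whole. The sums of other keratins, of transcription and splicing factors and of basement membrane genes overlapped. Mesenchyme marker sums were lower in the mutant-labelled libraries too, and their part in these sums was not tested.

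Among junction genes (14 tested, 6 higher and 8 lower by sign), Cldn7 and Perp had the smallest p. Cldn7, a claudin of tight junctions known to bind Epcam protein, was at 12.7, 12.2 and 12.5 TPM in the mutant-labelled libraries and 15.6, 17.3 and 16.2 TPM in the control-labelled ones. The labels did not overlap, as for Epcam, and the log2 difference was -0.36 ± 0.10 (SE; limma adjusted p = 0.669). Perp, a desmosome gene that p63 activates, was at -0.31 ± 0.16 (SE; limma adjusted p = 0.727). Cldn6, a claudin of embryonic epithelia, was the most abundant of the list (mean 28.1 TPM), and Dsc3, a desmosomal cadherin of stratified epithelium, the least (0.185 TPM).

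Of 9 tested epithelial transcription and splicing factors, 4 were higher and 5 lower by sign. Klf5 was at -0.27 ± 0.17 (SE; limma adjusted p = 0.752), and Ehf was listed at 0 in all libraries. In the membrane protein list (6 of 11 higher by sign) Cd24a, which is not restricted to epithelium, averaged 507 ± 14.1 TPM in the mutant label and 574 ± 43.1 TPM in the control label (SD, n = 3 each; log2 difference -0.18 ± 0.08, SE; limma adjusted p = 0.726). Lsr, a tricellular junction receptor gene, was at -0.24 ± 0.12 (SE; limma adjusted p = 0.727), and Ap1m2, an epithelial sorting adaptor gene, had the lowest mean (1.95 TPM). In the basement membrane list (3 of 9 higher by sign) Frem2 was at -0.25 ± 0.13 and Dst, the most abundant at 33.4 TPM, at -0.23 ± 0.14 (SE; limma adjusted p = 0.727 and 0.752), with Lama3 lowest at 0.187 TPM. Other keratins gave Krt10 at 0.08 ± 0.16 and Krt7 at -0.04 ± 0.18 (SE; limma adjusted p = 0.914 and 0.966).

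**Figure D4:**
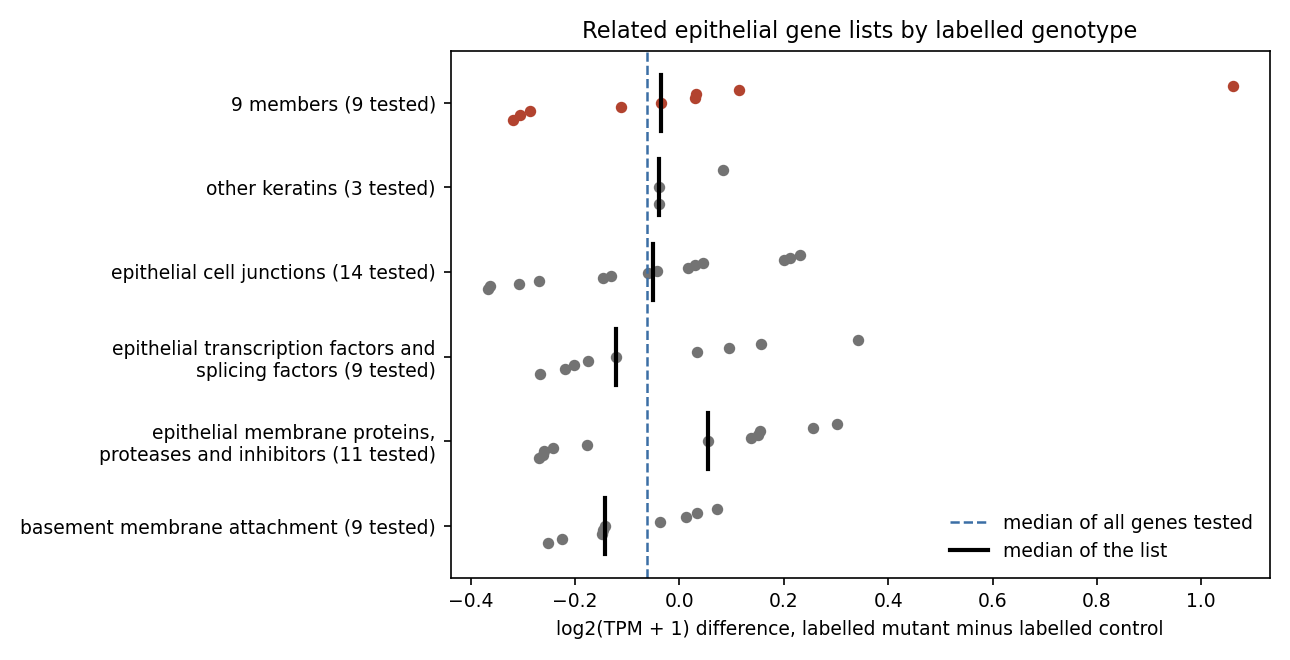
Log2(TPM + 1) differences (horizontal axis, labelled mutant minus labelled control, limma) of the 9 genes and of the tested genes of 5 related lists, 1 point per gene; black bars are list medians and the dashed line is the median of all genes tested. Krt14 at 1.06 stands apart from the other points, which all lie well below it.

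Beside Msx1, 12 of the 46 related genes were lower in the library with the lower Msx1 in all 3 litters (11.9% of all genes tested). Another 2, Perp and Wfdc2, were higher in all 3, as were 1314 of the 12152 genes tested. Among the 12 were Grhl2, Tfap2c and Esrp1, which encode an epithelial grainyhead factor, an AP-2 factor and an epithelial splicing factor. Grhl2 was at 3.72, 4.64 and 5.86 TPM in the mutant-labelled libraries and 6.03, 3.26 and 4.69 TPM in the control-labelled ones. Esrp1 was at 10.5, 12.2 and 12.8 TPM in the mutant-labelled libraries and 15.6, 11.7 and 11.8 TPM in the control-labelled ones. Krt10 was at 5.20, 5.88 and 6.32 TPM in the mutant-labelled libraries and 6.49, 5.36 and 4.50 TPM in the control-labelled ones. These genes were picked out after their values were seen. Genes of one tissue may share its amount in each library, so the 12 cannot be counted as independent of each other. Such a shared amount was not tested.

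Markers of the other cell types that the dissection holds were compared by their summed TPM. Periderm markers (6 genes, 3 of them tested) summed to 14.8 to 17.5 TPM in the mutant-labelled libraries and 14.4 to 18.3 TPM in the control-labelled ones. Among them Krt6a was at 0 in all libraries, Krt4 reached at most 0.0688 TPM and Krt17 at most 0.695 TPM. Sfn and Grhl3, also among them, stand in the related epithelial lists as well. Endothelial markers (6 genes) summed to 87.0 to 105 TPM in the mutant-labelled libraries and 88.6 to 90.5 TPM in the control-labelled ones. Skeletal muscle progenitor markers (5 genes, 1 tested) summed to 3.53 to 3.75 TPM and 2.34 to 4.98 TPM in the mutant and control labels, neuronal markers (5 genes, 2 tested) to 4.44 to 6.79 TPM and 3.29 to 5.86 TPM, and macrophage markers (6 genes, 4 tested) to 11.9 to 22.0 TPM and 13.3 to 19.1 TPM. The muscle gene tested was Tcf21 (mean 2.41 TPM), and the other muscle markers were too low for the test. Of these sums and that of the red blood cell markers, the mesenchyme sum alone separated the labels. With the libraries rescaled to equal mesenchyme sums, Krt14 and Epcam remained separated by label, Krt8 did not, and Cdh1 became higher without overlap.

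Genes whose pattern over the 6 libraries was most like the mean standardised level of the 9 were Nemf, Spcs3, Cdyl, Alg8, Lrrfip2 and Ftsj3, and none of them stands in the epithelial lists. Likeness was Pearson r of log2(TPM + 1) over 6 libraries, from 0.991 to 0.997 for these genes. Compared were 8672 genes with a mean of at least 5 TPM, leaving out the 9 genes, predicted genes, clone names and pseudogenes. Of these, 259 had r of at least 0.9, and the 6 libraries share litters and scaling. For the 3 simple keratins the most alike were Ptch1, Wdr59, Hand1, Basp1, Rgs5 and Nadk2, with r from 0.976 to 0.991, and 105 genes had r of at least 0.9.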

How the data were processed

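Polyadenylated RNA of 6 single-embryo libraries was sequenced. Per the file headers the authors deposited 1 TPM value per gene and library. Salmon 1.5.2, DESeq2 and the build mm10 are named, per the submitters' processing notes, without roles. Annotation release and filters: not given in the sources used here. Listed genes sum to 716208 to 735601 TPM per library. TPM keep no depth, so precision rests on the spread between embryos.

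Per the file headers, the authors' deposited comparison table holds a base mean (a signal, never negative), a log2 fold change with its standard error, a Wald score and unadjusted and adjusted p-values. Its direction and model are not stated.

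From the TPM, limma 3.58.1 in R 4.3.3 (variance trend, robust moderation) was fitted on log2(TPM + 1) over genes reaching 1 TPM in 3 or more libraries, and adjusted p-values cover all 12152 genes tested. Labels share litters by the design text, so litter pairs the libraries. Deviations from the label means of littermates had Pearson r of -0.0545, -0.0279 and -0.0257 over genes. Pairs from different litters had r from -0.0217 to 0.0489, so littermates were not more alike by this measure. The fit was tested on simulated data. Alternatives were pseudocounts, filters, scalings, a litter block and leaving out each library. Besides the 9 genes and Msx1, the text names in each list the 2 tested genes with the smallest p, the highest and the lowest by mean, and the genes most alike in pattern; others are named as chosen after seeing values. A gene that this rule names is not reported here. Members and lists were chosen with earlier results of these data known.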

Additional observations from a re-analysis of the deposited data

How the results depend on the processing

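The counts of 0 genes called higher and 0 lower between labels, 0 of the 9 members in either direction and 0 of the related genes held under pseudocounts of 0.1 and 0.5, no filter, a mean of at least 5 TPM (which tested 6 of the 9), 3 scalings and the replicate block by litter, which changed no call. Leaving out 1 library at a time gave 0 to 1 gene higher (without control of litter 1) and 0 to 1 lower (without mutant of litter 1), and 0 members. Krt8, Krt14, Krt15, Epcam and Trp63 kept their sign under every setting run. Krt5 turned to 0.0254 under median-of-ratios scaling and to 0.0252 under quantile normalization. Over the left-out libraries Krt5 ranged from -0.223 to 0.0632, Krt18 from -0.0456 to 0.116, Krt19 from -0.0217 to 0.275 and Cdh1 from -0.0137 to 0.0551, crossing 0. The difference in log2 ratio of simple to basal keratins was -0.22, which pairing by litter cannot change because each litter gives 1 library to either label. With 1 library left out it ranged from -0.38 (without mutant replicate 3) to -0.02 (without mutant replicate 1). The difference in the share held by the 9 genes then ranged from -0.00178 to -0.000712 percentage points. Rescaling to equal mesenchyme markers, chosen after seeing the data, gave 2 members above (Krt14 and Cdh1) and 1 below (Epcam). The causes were not tested. Depth per library is unknown, and Krt14 and Krt19 have the lowest base means of the 9 in the authors' deposited table.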
